A study of Mus musculus with 9 samples.

Results

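The unfolded protein response and its chaperones were followed in microglia, the macrophages native to brain tissue, as a set of 34 genes of the endoplasmic reticulum (ER). The genes were picked by symbol for their known roles, and all 34 were present among the 45664 symbols of the count table. The filter on low counts kept 32 of them, among 13067 genes tested. The study sorted these cells from visual cortex of C57BL/6 mice, all male and adolescent, after exposure to ethanol in the days after birth. The ethanol group held 4 mice, which received 1.8 g per kg of a 20% v/v ethanol solution under the skin 2 times a day, 2 h apart, from day 4 through day 9 of life, or 3.6 g per kg daily. They were 35, 35, 30 and 30 days old at collection (ethanol 1 to 4). The saline group held 5 mice injected with the same volume of saline on the same schedule, aged 36, 30, 35, 29 and 30 days (saline 1 to 5). Live cells that carried CD11b and little CD45 were sorted, and every library was made from 1 mouse, so each p-value here measures the spread between mice together with that of sorting and library preparation. The mice came from 3 litters, and which mouse came from which is not given in the sources.

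Proteins that enter the ER are folded there by chaperones, cross-linked by disulfide isomerases and, if misfolded, handed to ER-associated degradation (ERAD). When unfolded proteins build up, membrane sensors react. IRE1, the product of Ern1, splices Xbp1 mRNA, PERK, the product of Eif2ak3, slows translation and favours that of ATF4, and ATF6 is cut free to become a transcription factor. The response raises chaperones such as BiP, the product of Hspa5, and if it persists it raises CHOP, the product of Ddit3. Counts per gene show mRNA levels, and neither Xbp1 splicing nor the translation of Atf4 mRNA can be read from them.

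Libraries held 12816198 to 28859244 counts. A level in CPM is a count relative to the scaled size of its library. The 10 microglia markers summed to 60120 to 71180 CPM in ethanol mice and 59835 to 68767 CPM in saline mice, among them Csf1r at 18077 to 20844 CPM in all 9 libraries. Neuron markers summed to 83.2 to 314 CPM in ethanol mice and 3.64 to 256 CPM in saline mice, with saline 1 lowest, and astrocyte markers to 328 to 465 CPM in ethanol mice and 271 to 481 CPM in saline mice. Of the markers of plasma cells, whose secretory load keeps many of these ER genes high, Jchain reached at most 0.280 CPM, Mzb1 at most 0.0794 CPM, and Sdc1 was at 0 in every library. Others of the list were present in every library, Prdm1 at 65.2 to 83.7 CPM, Tnfrsf17 at 16.3 to 20.9 CPM and Irf4 at 5.85 to 12.4 CPM, and the list without Xbp1 summed to 90.7 to 112 CPM. Ethanol 2 and saline 1 stood apart from the other libraries, and values that moved most without one of them are given both ways.

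Several of the chaperone genes carry in their promoters the ER stress response element (ERSE), the known binding site of ATF6 and XBP1 together with the factor NF-Y. It was searched on both strands of the 250 bases before each transcription start as the letters CCAAT, then any 9 bases, then CCACG. Promoters of 29 of the 34 genes were matched in RefSeq sequence of build GRCm38.p6. Promoters of Atf6, Ppp1r15b, Hyou1, Manf and Derl1 were not analysed here. The element occurred in 8 of the 29 (27.6%) and in 35 of 27025 genes with a promoter in the table (0.130%). It is printed here as the feature that these genes share in sequence, read on the strand that carries CCAAT, with its fixed letters in capitals. Hsp90b1 held it at 2 places. Positions are counted from the RefSeq start. The GENCODE model of Hspa5 begins further upstream, so its element lies within that model and not before it.
Hspa5 (chr2:34772025-34772043, plus strand, bases -65 to -47 from the start): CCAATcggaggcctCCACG
Hsp90b1, far element (chr10:86705638-86705656, minus strand, -212 to -194): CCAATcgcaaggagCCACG
Hsp90b1, near element (chr10:86705533-86705551, plus strand, -107 to -89): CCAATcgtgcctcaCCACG
Dnajc3 (chr14:118937827-118937845, plus strand, -105 to -87): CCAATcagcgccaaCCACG
Creld2 (chr15:88819520-88819538, minus strand, -126 to -108): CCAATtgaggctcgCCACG
Pdia6 (chr12:17266491-17266509, plus strand, -98 to -80): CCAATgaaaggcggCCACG
Calr (chr8:84847075-84847093, plus strand, -162 to -144): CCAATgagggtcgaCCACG
Canx (chr11:50325800-50325818, minus strand, -145 to -127): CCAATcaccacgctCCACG
Syvn1 (chr19:6046532-6046550, plus strand, -44 to -26): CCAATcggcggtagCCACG

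A shorter relative, ERSE-II, is written ATTGG, any 1 base, then CCACG. Among the 29 matched genes it was found in Herpud1 alone (3.45%), against 0.0370% of all genes with a promoter. Herpud1 also held the letters TTGCATCA, the core of the site bound by ATF4 with its partners, which occurred in 2 of the 29 genes (6.90%, the other being Chac1) and in 0.918% of all. The letters TGACGTG, the core of a site bound by ATF6 and XBP1, occurred in Hspa5 alone (3.45%, against 1.85% of all). The stretches of the Hsp90b1 and Herpud1 promoters that lie before the annotated gene are shown whole, since they hold the pair of ERSE copies and the joint ERSE-II and ATF4-type letters. Matching letters are in capitals, and each sequence runs along its gene's strand.
Hsp90b1 (chr10:86705510-86705694, minus strand): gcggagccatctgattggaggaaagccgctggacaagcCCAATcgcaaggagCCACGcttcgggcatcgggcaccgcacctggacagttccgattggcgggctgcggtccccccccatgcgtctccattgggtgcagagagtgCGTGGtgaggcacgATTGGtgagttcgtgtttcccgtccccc
Herpud1 (chr8:94386179-94386428, plus strand): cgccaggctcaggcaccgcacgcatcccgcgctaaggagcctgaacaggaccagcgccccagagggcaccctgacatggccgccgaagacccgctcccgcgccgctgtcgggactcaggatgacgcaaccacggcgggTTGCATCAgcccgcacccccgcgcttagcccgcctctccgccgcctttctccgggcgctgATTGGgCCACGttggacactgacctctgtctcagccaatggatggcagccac
A match of letters is a description of these windows and does not show that a factor was bound there.

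The folding machinery was abundant, and some targets of the PERK arm were scarce. To compare genes with each other, CPM was divided by the kilobases of exon of each gene (GENCODE M21, GRCm38), and means over the 9 libraries are given with their SD. The 6 highest genes were folding enzymes and chaperones. Pdia3, a disulfide isomerase that works on glycoproteins, stood at 456 ± 61.0 CPM per kb, above 99.5% of the tested genes with an annotated length. It exceeded the next gene, the lectin chaperone Calr, in all 9 libraries. Calr followed at 295 ± 42.7, Hspa5 at 272 ± 24.9, Hsp90b1 (GRP94) at 259 ± 19.7, P4hb at 256 ± 20.9 and the lectin chaperone Canx at 253 ± 23.8 CPM per kb. Hspa5 lay above Hsp90b1 in 6 of 9 libraries, Hsp90b1 above P4hb in 5 and P4hb above Canx in 5, so these neighbours did not differ beyond their spread. Canx in turn exceeded the next gene, the isomerase Pdia6 at 141 ± 15.2 CPM per kb, in all 9. The length used was that of all exons of a gene joined. For Pdia6 it was 3745 bases against 2175 for the longest transcript, and for Canx 4693 against 4281. A gene's length was the same in every library, so the SD and these counts do not cover the choice of length. The order on transcript length is not given here.

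The transcription factor Xbp1 was the highest of the regulators at 109 ± 8.25 CPM per kb, next to Herpud1, an ERAD component, at 117 ± 11.5 and the BiP partner Sdf2l1 at 106 ± 13.3. The other factors followed at 41.0 ± 4.66 CPM per kb for Atf4 and 10.8 ± 1.88 for Ddit3. The sensors also lay below Xbp1. Atf6b, a relative of Atf6, stood at 46.8 ± 4.64 CPM per kb, Eif2ak3 at 14.4 ± 1.60, Atf6 at 13.5 ± 1.90 and Ern1 at 5.78 ± 1.67. Eif2ak3 exceeded the next gene in the order, Sec61b at 13.9 ± 1.44 CPM per kb, in 7 of 9 libraries, and Sec61b exceeded Atf6 in 4 of 9.

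Asns, Trib3 and Chac1, which are known to rise when the PERK arm is engaged, lay at the bottom. Asns, which encodes asparagine synthetase, averaged 0.837 ± 0.635 CPM per kb, and 18.7% of the genes with an annotated length lay lower. Trib3, a pseudokinase that restrains the response, and Chac1, which degrades glutathione, did not pass the filter. Trib3 had 0, 37, 1 and 0 counts in ethanol 1 to 4 and 18, 5, 0, 3 and 14 counts in saline 1 to 5. Chac1 had 0, 6, 1 and 0 counts in ethanol 1 to 4 and 0, 13, 0, 0 and 1 counts in saline 1 to 5. A count of 0 allows up to 3 counts, or 0.103 to 0.238 CPM depending on the library, and covers counting error only. The largest value of Trib3 in the ethanol group, 1.53 CPM in ethanol 2 (95% exact Poisson interval 1.08 to 2.11), and the largest in the saline group, 1.01 CPM in saline 1 (0.598 to 1.59), had overlapping intervals.

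**Figure D1:**
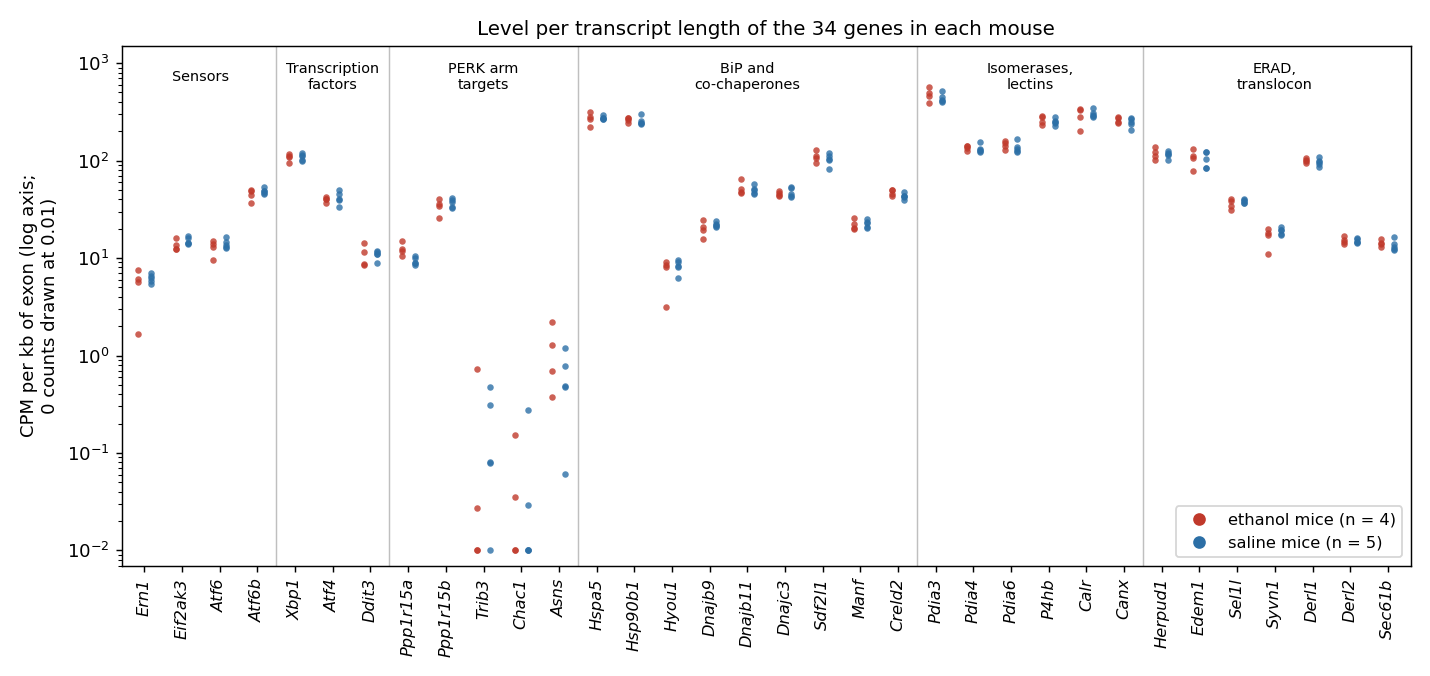
Level of each of the 34 genes per kilobase of exon in each mouse (log axis, 1 point per library, ethanol mice left of saline mice, 0 counts drawn at 0.01). The isomerases and lectins sit highest, Xbp1 stands at 109 CPM per kb on average, and Asns, Trib3 and Chac1 lie lowest, with the points of ethanol and saline mice interleaved for most genes.

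The first comparison asked whether ethanol in the days after birth left the response at another level in adolescence. None of the 32 genes passed the threshold, an adjusted p under 0.05 in edgeR's quasi-likelihood test with Benjamini-Hochberg adjustment over all 13067 genes. No other gene passed it either, so the share called was 0% among the 32 genes and 0% among all genes. Ethanol lay above saline for 16 of the 32 genes, with a median log2 fold change of 0.01, against -0.00068 over all genes. One gene, Ppp1r15a, had an unadjusted p under 0.05 (3.12% of 32), beside 386 of all genes (2.95%). DESeq2 and limma-voom also called 0 genes, with 435 and 512 at an unadjusted p under 0.05.

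The widths of the intervals say how large a difference could have gone unseen. The 95% interval of the fold change stayed within 1.5-fold in either direction for 28 of the 32 genes, all but Ern1, Ppp1r15a, Asns and Hyou1, and within 2-fold for 31, all but Asns. Over all genes, 59.4% had an interval within 1.5-fold. No gene of the set separated the groups without overlap, beside 168 of all genes (1.29%). Because a bulk library sums its cells, fewer cells of a type and less RNA per cell cannot be told apart in any of these values. Of the markers of other cells, all 9 tested neuron genes and all 12 astrocyte genes lay above 0 for ethanol (medians 0.38 and 0.67). All 4 tested border macrophage genes lay below it (median -1.02, range -1.25 to -0.28), and no marker passed the threshold. The sums of the border macrophage list overlapped, at 39.1 to 91.3 CPM in ethanol mice and 48.4 to 81.7 CPM in saline mice. Most of each sum was Mrc1, at 37.11 to 89.07 CPM in ethanol mice and 45.13 to 75.02 CPM in saline mice. The other genes of that list reached at most 2.523 CPM. Saline 1 had the lowest neuron and astrocyte sums, 3.64 and 271 CPM, against 129 to 256 and 325 to 481 CPM in the other saline mice. The ethanol mice had 83.2 to 314 and 328 to 465 CPM, and the medians without saline 1 are not given here. The part of these markers in the values of the set was not tested.

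**Figure D2:**
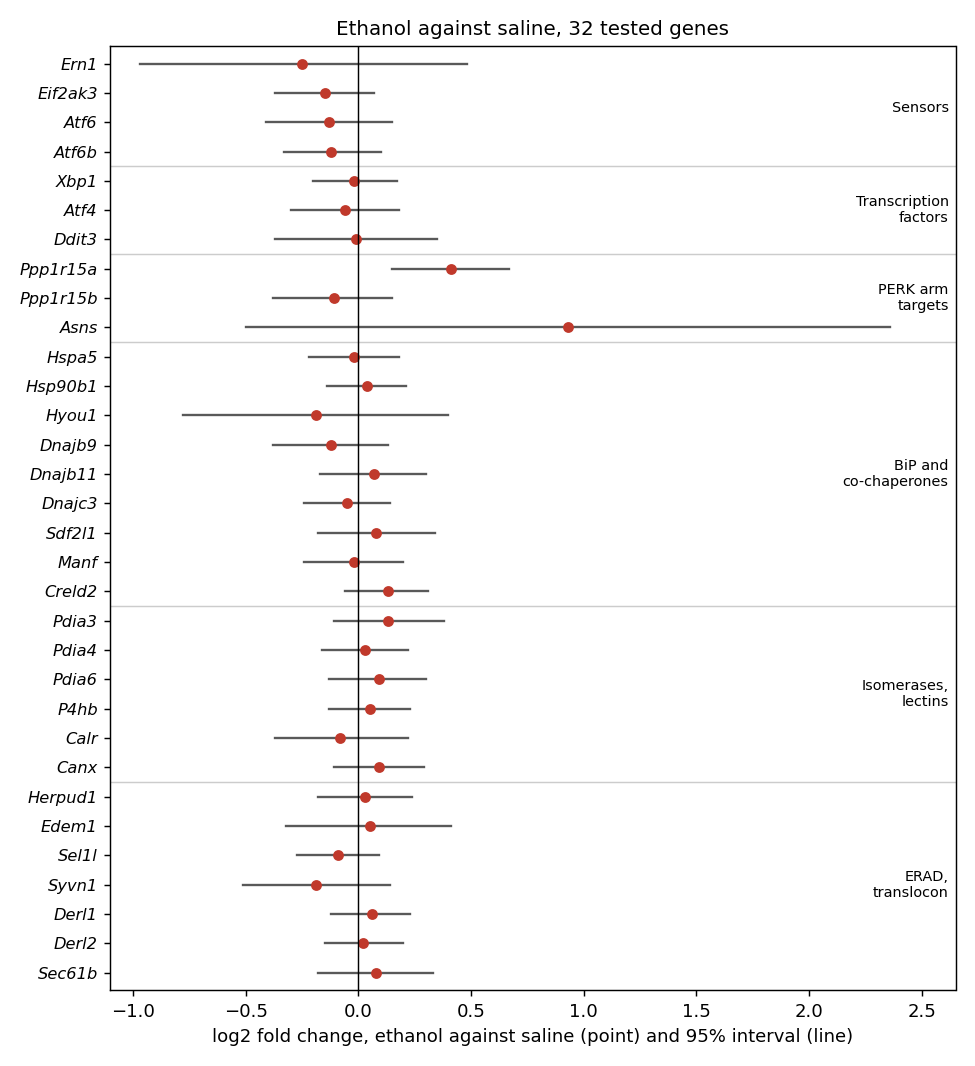
Log2 fold change of ethanol against saline (point) with its 95% interval (line) for the 32 tested genes, grouped by role. All but Ppp1r15a have an interval that spans 0, and those of Asns, Ern1 and Hyou1 are the widest.

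Among the sensors, all 4 fold changes lay below 0, with a median of -0.14, and none passed the test. The values leaned on ethanol 2, the lowest library for all 4. Without it they were 0.05 for Ern1, -0.02 for Atf6, -0.03 for Atf6b and -0.11 for Eif2ak3. Atf6b, the highest of them, had 133, 101, 137 and 123 CPM in ethanol 1 to 4 and 127, 134, 125, 147 and 135 CPM in saline 1 to 5. Its log2 fold change was -0.12 ± 0.10 (SE, n = 4 and 5; adjusted p = 0.963, edgeR). Eif2ak3 had 97.7, 74.2, 81.2 and 75.1 CPM in ethanol mice and 86.5, 83.8, 96.3, 101 and 86.9 CPM in saline mice. In 3 ethanol mice it lay below every saline mouse, while ethanol 1 lay above 4 of the 5, and the log2 fold change was -0.15 ± 0.10 (adjusted p = 0.963, edgeR).

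Ern1 (chr11:106394650-106487852, minus strand) is described here after its values were seen. It had 49.7, 13.6, 61.3 and 46.8 CPM in ethanol 1 to 4 and 56.8, 50.7, 44.4, 47.5 and 54.0 CPM in saline 1 to 5. Ethanol 2 was far below all others, and the remaining ethanol mice lay among the saline mice. The log2 fold change was -0.25 ± 0.33 with all mice and 0.05 without ethanol 2, on the other side of 0.

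The transcription factors differed little between the groups, with 0 of 3 above 0 and a median of -0.02. Xbp1, whose spliced product drives ER expansion, had 356, 375, 362 and 308 CPM in ethanol mice and 371, 323, 363, 388 and 328 CPM in saline mice. The groups overlapped over most of their range, and the log2 fold change was -0.02 ± 0.08 (adjusted p = 0.986, edgeR). Atf4 averaged 94.4 ± 5.01 CPM in ethanol mice (SD, n = 4) and 98.4 ± 14.6 CPM in saline mice (SD, n = 5), with a log2 fold change of -0.06 ± 0.11 (adjusted p = 0.967, edgeR). Ddit3 averaged 18.4 ± 4.79 CPM in ethanol mice and 18.6 ± 1.90 CPM in saline mice. Leaving out saline 1 put Xbp1 at 7.3e-05 and Atf4 at 0.01, both on the other side of 0. Ddit3 overlaps Mars on the opposite strand, and whether the authors counted by strand is not stated.

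The PERK arm held the only gene with an unadjusted p under 0.05. Ppp1r15a (chr7:45522916-45526268, minus strand) encodes GADD34, the stress-induced phosphatase subunit that restores translation. It had 36.5, 44.0, 34.5 and 30.6 CPM in ethanol 1 to 4 and 24.7, 31.1, 26.2, 29 and 25.8 CPM in saline 1 to 5. Every ethanol mouse but ethanol 4 lay above all saline mice, and ethanol 4 lay below saline 2 only. The group means were 36.4 ± 5.63 CPM in ethanol mice and 27.4 ± 2.64 CPM in saline mice (SD, n = 4 and 5). The log2 fold change was 0.41 ± 0.12 (95% interval 0.15 to 0.67), and it failed correction over all genes (adjusted p = 0.963, edgeR). Leaving out each mouse in turn gave 0.30 to 0.49, lowest without ethanol 2.

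The other tested genes of this arm were Ppp1r15b and Asns. Ppp1r15b, the constitutive counterpart of GADD34, had 202, 145, 224 and 191 CPM in ethanol mice and 221, 211, 189, 182 and 228 CPM in saline mice, with a log2 fold change of -0.11 ± 0.12 (adjusted p = 0.963, edgeR), and of -0.01 without ethanol 2. Asns had 1.91, 5.97, 1.03 and 3.51 CPM in ethanol mice and 0.168, 1.31, 2.11, 1.33 and 3.27 CPM in saline mice. Its fold change of 0.93 ± 0.65 on the log2 scale was the highest of the set and the least certain, with a 95% interval from -0.50 to 2.36. It moved between 0.39, without ethanol 2, and 1.34 as single mice were left out.

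**Figure D3:**
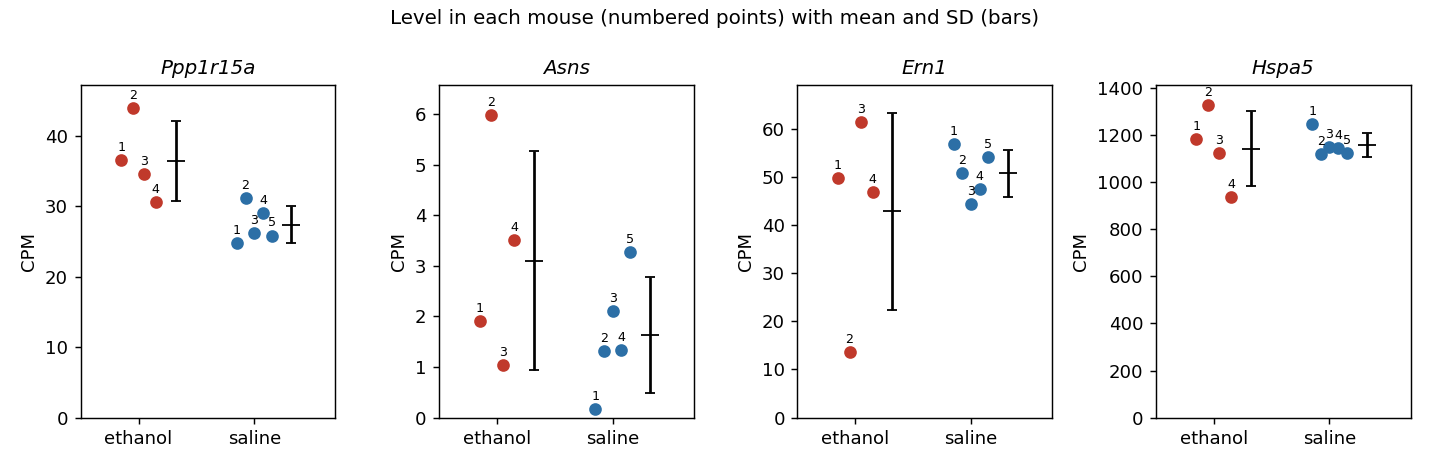
CPM of Ppp1r15a, Asns, Ern1 and Hspa5 in each mouse (numbered points), with the group mean and SD beside them. For Ppp1r15a the ethanol mice span 30.6 to 44.0 CPM and the saline mice 24.7 to 31.1 CPM, for Ern1 a single ethanol mouse lies apart at 13.6 CPM, and the Hspa5 points overlap.

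BiP and its partners did not pass the test, with 4 of 9 above 0 and a median of -0.02. Hspa5 (chr2:34771970-34777547, plus strand) had 1183, 1326, 1124 and 937 CPM in ethanol 1 to 4 and 1247, 1120, 1148, 1144 and 1124 CPM in saline 1 to 5. The ethanol mice included both the highest and the lowest value of the 9. The log2 fold change was -0.02 ± 0.09 (95% interval -0.22 to 0.18; adjusted p = 0.987, edgeR), 0.07 without ethanol 4 and 0.01 without saline 1. Creld2, a secreted protein induced by ER stress, had 59.3, 68.2, 68.3 and 61.4 CPM in ethanol mice and 64.5, 54.0, 57.6, 59.8 and 58.6 CPM in saline mice. Saline 1 and saline 4 lay within the ethanol range and the other saline mice below it, and the log2 fold change was 0.13 ± 0.08 (adjusted p = 0.963, edgeR).

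Hyou1, a nucleotide exchange factor for BiP described after its values were seen, repeated the picture of Ern1. It had 58.8, 22.6, 65.7 and 61.7 CPM in ethanol mice and 66.4, 68.2, 44.9, 57.8 and 59.5 CPM in saline mice, with ethanol 2 lowest. Its log2 fold change was -0.19 ± 0.27, and 0.06 without ethanol 2. The remaining chaperones and J-domain partners, Hsp90b1, Dnajb9, Dnajb11, Dnajc3, Sdf2l1 and the secreted survival factor Manf, had log2 fold changes between -0.12 (Dnajb9, and -0.02 without ethanol 2) and 0.08 (Sdf2l1, and -0.0039 without ethanol 2). Hsp90b1 averaged 1060 ± 52.3 CPM in ethanol mice and 1033 ± 101 CPM in saline mice.

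Among the isomerases and lectin chaperones, 5 of 6 lay above 0 with a median of 0.07, and none passed. Pdia3 (chr2:121413775-121438687, plus strand) had 1453, 1801, 1536 and 1234 CPM in ethanol mice and 1622, 1396, 1250, 1311 and 1284 CPM in saline mice. Ethanol 4 was the lowest of all mice and ethanol 2 the highest, and the log2 fold change was 0.13 ± 0.11 (adjusted p = 0.963, edgeR). Without ethanol 2 it was 0.03. Pdia4, Pdia6, P4hb and Canx had log2 fold changes of 0.03, 0.09, 0.05 and 0.09. Calr was the exception at -0.08 ± 0.14, with 579 CPM in ethanol 2 against 813 to 963 CPM in the other ethanol mice and 808 to 994 CPM in saline mice, and at 0.06 without ethanol 2.

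The ERAD and translocon genes were split, 5 of 7 above 0, with a median of 0.03. Edem1, a lectin-like protein that picks glycoproteins for disposal, had 691, 502, 844 and 718 CPM in ethanol mice and 787, 799, 545, 539 and 664 CPM in saline mice. Both groups spanned nearly the same range, and the log2 fold change was 0.05 ± 0.17 (adjusted p = 0.983, edgeR). Syvn1, the HRD1 ubiquitin ligase, had 95.6, 53.4, 84.1 and 88.8 CPM in ethanol mice and 83.1, 86.1, 102, 93.2 and 93.5 CPM in saline mice. Its log2 fold change of -0.19 ± 0.15 (adjusted p = 0.963, edgeR) was -0.04 without ethanol 2. Herpud1 and Sel1l, which hold the HRD1 complex together, had log2 fold changes of 0.03 and -0.09, and of -0.05 and -0.03 without ethanol 2. Derl1 and Derl2, which help move proteins out of the ER, had 0.06 and 0.02, and Sec61b, a subunit of the import channel, had 0.08.

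The 8 genes with an ERSE shown above spanned -0.19 (Syvn1) to 0.13 (Creld2) in log2 fold change, with 4 of 8 above 0 and a median of 0.01. The 19 other tested genes with a matched promoter had a median of 0.03. The difference between these medians was not tested.

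Ethanol 2 and saline 1 were the libraries most often at the extremes. Ethanol 2 was the highest library for 10 of the 32 genes and the lowest for 11, shares of 31.2% and 34.4%. Among all 8480 genes with a mean of at least 10 CPM it was also the extreme library for many, highest for 28.4% and lowest for 29.5%. The genes furthest down there were Ern1, Hyou1, Syvn1, Calr, Atf6, Ppp1r15b, Dnajb9, Edem1 and Atf6b, each more than 0.3 below the mean of the other libraries on the log2 scale. Asns, Ppp1r15a, Ddit3, Pdia3, Dnajb11 and Sdf2l1 lay more than 0.3 above it. The 9 low genes had longer transcripts by median, 4925 bases (range 2184 to 7246), than the 6 high ones, 2264 bases (range 969 to 2809). The 17 genes between them had a median of 2861 bases and spanned most of both ranges (723 to 6300). A trend on transcript length and GC content was also removed from every library. The log2 fold changes of Ern1 and Hyou1 for ethanol against saline were then -0.22 and -0.17. The part of transcript length in the ethanol 2 values was not tested. The cutoff of 0.3 was chosen after the values were seen.

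Saline 1 lay above the mean of the other libraries for 25 of the 32 genes, by a median of 0.17 on the log2 scale. Among the 8480 genes of at least 10 CPM it lay above for 4567, with a median of 0.02. In the set it lay above for all 6 isomerases and lectins (median 0.23) and for 8 of the 9 chaperones (median 0.19). The same library had the lowest sum of neuron markers, and the part of neuronal RNA in the difference was not tested. Without saline 1, ethanol lay above saline for 20 of the 32 genes with a median of 0.02. Without ethanol 4, which lay above the mean of the others for 10 of the 32 genes, it lay above for 20 of 33 with a median of 0.06. Within groups, the 31 genes above 10 CPM had a median SD of 0.151 on the log2 scale, against 0.172 over the 8480 genes. The spread ran from 0.0956 for Derl2 to 0.650 for Ern1.

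**Figure D4:**
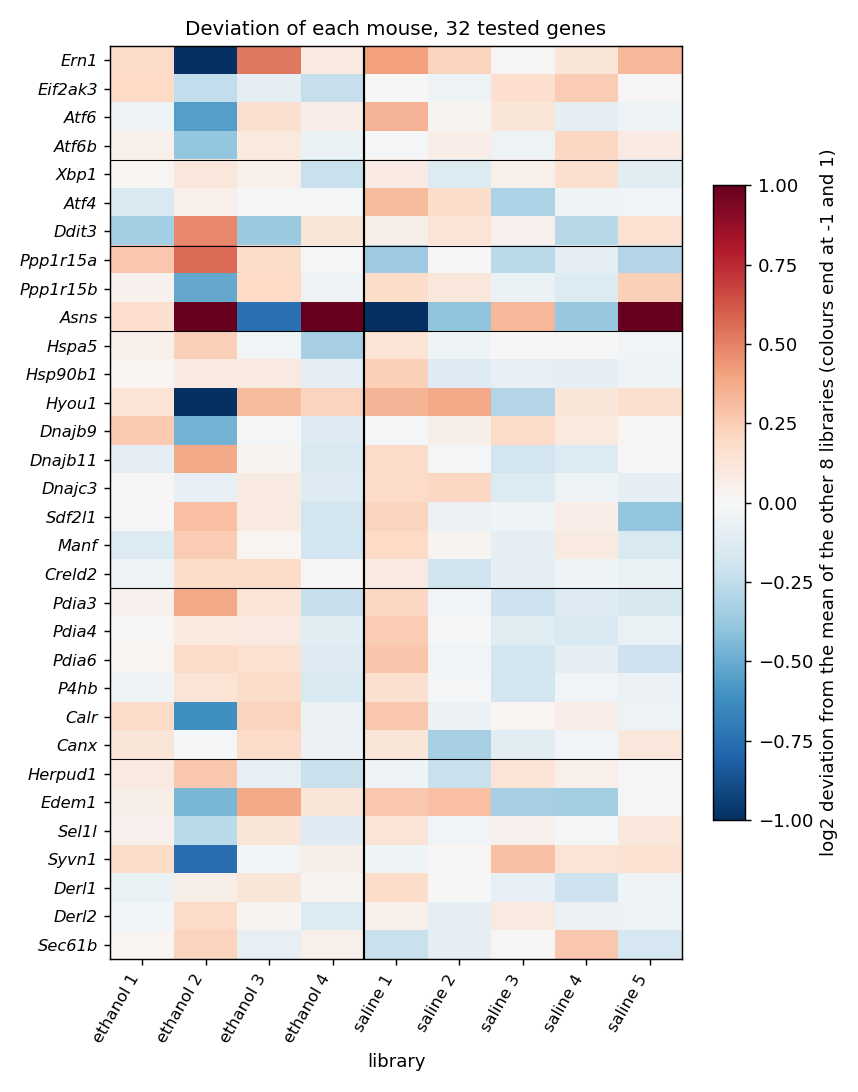
Log2 deviation of each library from the mean of the other 8 for the 32 tested genes (red above, blue below, colours end at -1 and 1), ethanol libraries left of saline libraries. Ethanol 2 is blue at all 4 sensors, Hyou1, Syvn1 and Calr, and red at Ddit3, Ppp1r15a and Pdia3, while saline 1 is above the mean of the others for 25 genes.

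The ages allowed a comparison of older with younger mice, with ethanol as a covariate. Older mice were 35 and 36 days old (2 ethanol and 2 saline), younger mice 29 and 30 days old (2 ethanol and 3 saline). Litter could not be added as a covariate, since mice cannot be matched to litters. The age cohorts may thus differ in litter as well as in age, and these were not separated. No gene passed the threshold, so the share called was 0% for the 32 genes and 0% for all 13067 in edgeR, and DESeq2 and limma-voom also called 0. None of the 32 genes had an unadjusted p under 0.05, beside 372 of all genes (2.85%) in edgeR, 451 in DESeq2 and 439 in limma-voom. Older mice lay above younger mice for 21 of the 32 genes, with a median of 0.03 on the log2 scale, against -0.02 over all genes.

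Hspa5 had the smallest p of the set. It had 1183, 1326, 1247 and 1148 CPM in the older mice (ethanol 1, ethanol 2, saline 1 and saline 3) and 937 to 1144 CPM in the younger mice. The groups did not overlap, by a gap of 1144 to 1148 CPM, and Hspa5 was 1 of the 32 genes in which this was so (3.12%), beside 162 of all genes (1.24%). Its log2 fold change was 0.18 ± 0.08 (adjusted p = 0.973, edgeR), between 0.11 and 0.22 as single mice were left out. Herpud1 averaged 291 ± 22.6 CPM in older mice and 257 ± 19.8 CPM in younger mice, with a log2 fold change of 0.18 ± 0.09. Sdf2l1 averaged 126 ± 13.1 CPM in older mice and 111 ± 13.1 CPM in younger mice, also with 0.18 ± 0.11. Derl2, a channel component of ERAD, averaged 127 ± 7.19 CPM in older mice and 117 ± 4.61 CPM in younger mice (SD, n = 4 and 5), with 0.12 ± 0.08. All 3 had an adjusted p of 0.973 in edgeR. Neuron markers lay below 0 in the same comparison for 8 of 9 tested genes (median -0.95) and astrocyte markers for 11 of 12 (median -0.91). Saline 1, an older mouse, had the lowest sums of both, 3.64 and 271 CPM. Ethanol 1, ethanol 2 and saline 3 had neuron sums of 168, 83.2 and 169 CPM, against 119 to 314 CPM in younger mice. Their astrocyte sums were 408, 428 and 386 CPM, against 325 to 481 CPM in younger mice. The part of these markers in the age values was not tested, and their medians without saline 1 are not given here.

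Age ran close to a suffix in the library names, whose meaning is not given in the sources. A suffix was shared by 3 older mice and 1 younger mouse, another by the 4 other younger mice, and saline 1 had its own. With the suffix as a covariate, a fit added after the data were seen, 0 genes passed in edgeR (172 at an unadjusted p under 0.05). The age difference then rested on the 1 suffix that held both ages, with 3 older mice and 1 younger mouse, saline 4. In that fit it lay above 0 for 16 of the 32 genes. The log2 fold changes were 0.11 for Hspa5, 0.11 for Herpud1 and 0.12 for Derl2, and that of Sdf2l1 was -0.09, on the other side of 0. Among the 4 mice that shared a suffix, Hspa5 was at 1183, 1326 and 1148 CPM in the older mice and at 1144 CPM in the younger mouse.

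Whether ethanol mattered differently by age was tested as an interaction, in which age was again not separated from litter. No gene passed in edgeR, 0% of the 32 genes and 0% of all. Atf6 and Ppp1r15a had an unadjusted p under 0.05 (6.25% of 32), beside 423 of all genes (3.24%). Atf6 (chr1:170704674-170867771, minus strand) had 121 and 88.0 CPM in older ethanol mice and 153 and 133 CPM in older saline mice, and in the younger mice 137 and 129 CPM with ethanol and 126, 117 and 121 CPM with saline. Ethanol mice were thus lower in the older cohort and higher in the younger one. The interaction was -0.59 ± 0.21 on the log2 scale (adjusted p = 0.972, edgeR), and -0.38 without ethanol 2. Ppp1r15a had 36.5 and 44.0 CPM in older ethanol mice and 24.7 and 26.2 CPM in older saline mice, against 34.5 and 30.6 CPM with ethanol and 31.1, 29 and 25.8 CPM with saline in the younger mice. Its interaction was 0.48 ± 0.21 (adjusted p = 0.972, edgeR), and 0.34 without ethanol 2.

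The interaction rests on 2 or 3 mice a cell, and 1 mouse can decide it. Without ethanol 1, ethanol 2 was the lone older ethanol mouse, assumed to vary like the other groups, and 848 genes then passed (6.36%), 833 of them lower. Of the 33 genes of the set tested there, 4 passed (12.1%). Ern1, Atf6, Hyou1 and Calr were all lower, at -1.95, -0.80, -1.31 and -0.73 on the log2 scale (adjusted p = 0.00135, 0.0169, 0.0159 and 0.0423, edgeR). They are genes in which ethanol 2 was the lowest library, and without ethanol 2 itself 0 genes passed.

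A last fit asked which genes moved with Hspa5 from mouse to mouse, as a slope of each gene's log2 level on the log2 CPM of Hspa5 with ethanol as a covariate. It covered 13066 genes, without Hspa5 itself. Of the 31 other genes of the set, 0 passed, beside 1 of all genes (0.00765%), and 8 had an unadjusted p under 0.05 (25.8%), beside 1929 of all genes (14.8%). The 8 were Xbp1, Dnajb11, Sdf2l1, Manf, Pdia3, Pdia6, Herpud1 and Derl2, all with a positive slope. The steepest was Pdia3, at 1.13 ± 0.25 log2 units per log2 unit of Hspa5 (adjusted p = 0.220, edgeR), and it passed with DESeq2 (adjusted p = 0.0313), which called 161 genes (1.23%) and 1 of the 31 (3.23%). Sdf2l1 had a slope of 0.95 ± 0.35 (adjusted p = 0.282, edgeR) and Dnajb11 of 0.89 ± 0.32 (adjusted p = 0.277, edgeR). Herpud1, Manf, Pdia6, Xbp1 and Derl2 had slopes of 0.79, 0.77, 0.74, 0.61 and 0.56. The sensor Ern1, the chaperone Hyou1 and the ligase Syvn1 had negative slopes of -2.12, -1.93 and -1.13, with adjusted p of 0.454, 0.378 and 0.342 in edgeR.

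These slopes also leaned on the libraries at the ends of the Hspa5 range. Ethanol 2 and saline 1 had the highest Hspa5 and ethanol 4 the lowest. Without ethanol 2, 5 of 31 genes had an unadjusted p under 0.05 (16.1%), beside 8.36% of all genes, the slope of Pdia3 was 1.09 and that of Dnajb11 0.52, and the slope of Ern1 was 0.73, on the other side of 0. Without both ethanol 2 and saline 1 the counts were 3 of 31 (9.68%) and 7.41%. Hspa5 also lay higher in all older mice than in the younger ones, so these slopes are partly confounded with age. With age cohort as a further covariate, 4 of 31 genes had an unadjusted p under 0.05 (12.9%), beside 8.64% of all genes (edgeR). The share of the set was below that of all genes with limma-voom, 3 of 31 (9.68%) against 10.3%, and with a block for replicate number, 2 of 31 (6.45%) against 10.6%.

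**Figure D5:**
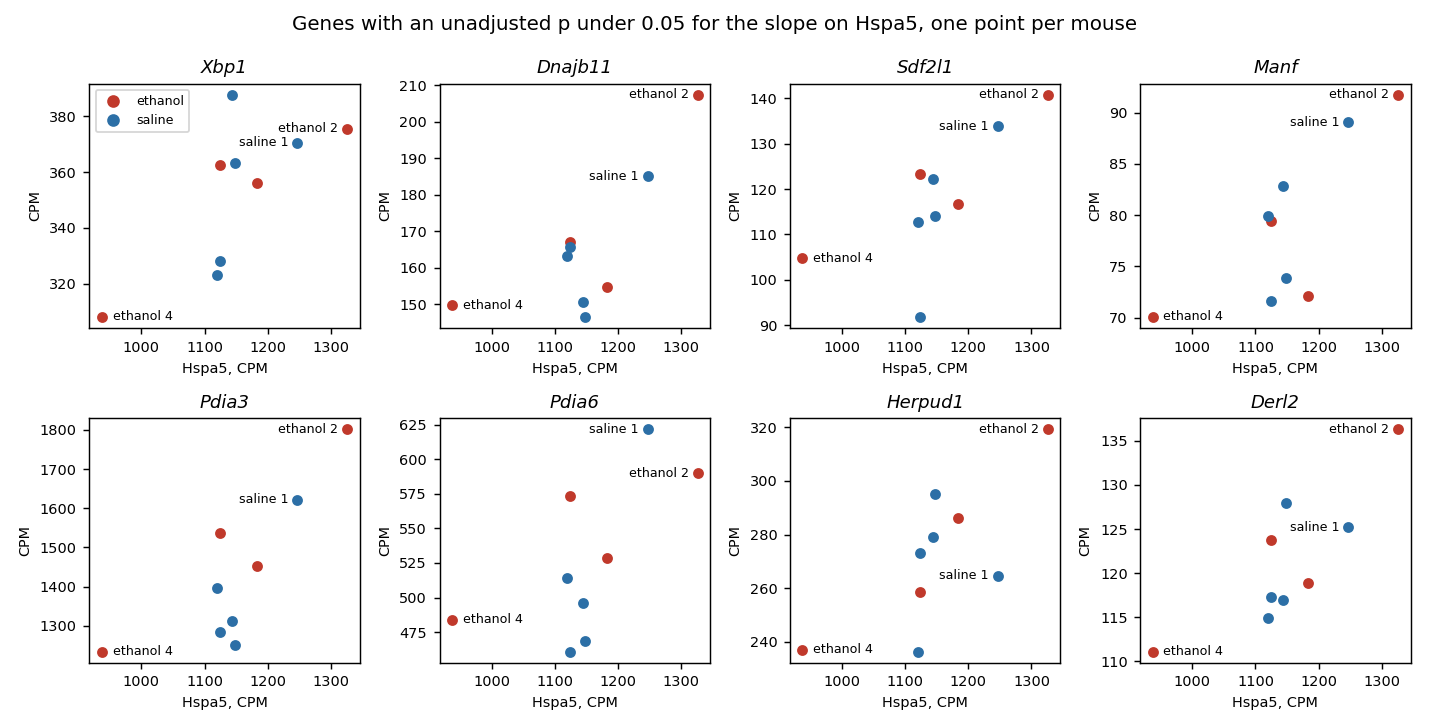
CPM of 8 genes against that of Hspa5, 1 point per mouse, with the libraries at the ends of the Hspa5 range named. In most panels ethanol 4 lies at the lower left and ethanol 2 and saline 1 at the upper right, and the mice between them, at 1120 to 1183 CPM of Hspa5, scatter without a common order.

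Other genes of the same pathways were given the same test in 5 lists of 115 genes, 107 of which were tested. Ethanol lay above saline for 71, with a median of 0.03, 0 passed and 3 had an unadjusted p under 0.05 (2.80%), beside 2.95% of all genes. The list of other integrated stress response genes had 21 of 26 above 0 and a median of 0.09, with 0 past the threshold. Over all genes, 6505 of 13067 lay above 0. Ethanol 2 was the highest library for several genes of this list, among them Mthfd2, Nars and Cars. It was the lowest for others, among them Slc7a5 and Eif2ak4. The counts of the list without ethanol 2 are not given here. Phgdh, a serine synthesis enzyme and ATF4 target, averaged 131 ± 20.8 CPM in ethanol mice and 112 ± 9.80 CPM in saline mice, for a log2 fold change of 0.23 ± 0.11 (adjusted p = 0.963, edgeR). Slc3a2, a subunit of amino acid transporters, averaged 538 ± 68.6 CPM in ethanol mice and 527 ± 36.8 CPM in saline mice.

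Of the other ERAD genes, 12 of 22 lay above 0. Nploc4, a cofactor of the p97 segregase, averaged 94.6 ± 20.2 CPM in ethanol mice and 116 ± 4.96 CPM in saline mice, at -0.29 ± 0.13, and Os9, an ERAD lectin, averaged 354 ± 22.7 CPM in ethanol mice and 345 ± 25.0 CPM in saline mice. Of the other folding and oxidation genes, 16 of 26 lay above 0. Dnajb12, an ER membrane J-protein, averaged 31.8 ± 3.27 CPM in ethanol mice and 38.2 ± 3.34 CPM in saline mice, at -0.27 ± 0.10 (adjusted p = 0.963 for both Nploc4 and Dnajb12, edgeR). The ranges of Dnajb12 overlapped, 28.2 to 36.1 CPM in ethanol mice and 35.3 to 42.8 CPM in saline mice. Those of Nploc4 did not, at 64.5 to 107 CPM in ethanol mice and 111 to 123 CPM in saline mice. Of the translocation and signal peptidase genes, 12 of 16 lay above 0, with Tram1 at 0.12 ± 0.08 and Srprb at 0.15 ± 0.08. Of the genes of IRE1 and ATF6 signalling, 10 of 17 lay above 0, with Tmbim6 at -0.26 ± 0.23 and Creb3l1, at 1.57 ± 0.337 CPM in ethanol mice and 1.09 ± 0.426 CPM in saline mice, at 0.53 ± 0.36. Several of these values leaned on ethanol 2, where Tmbim6 was at 185 CPM and Nploc4 at 64.5 CPM, the lowest of all libraries. Without it Tmbim6 was at -0.03, Nploc4 at -0.15, Dnajb12 at -0.22, Tram1 at 0.06, Srprb at 0.12, Creb3l1 at 0.59 and Phgdh at 0.11.

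Stress from tissue handling was looked at through 2 further lists. Cytosolic heat shock genes summed to 1492 to 2092 CPM in ethanol mice and 1504 to 1935 CPM in saline mice, with 8 of 14 above 0. Immediate early genes, which are known to rise when brain tissue is dissociated, summed to 1795 to 2679 CPM in ethanol mice and 1784 to 2784 CPM in saline mice, with 10 of 19 above 0. Neither list had a gene past the threshold, and the sums of the treatment groups overlapped over most of their range. By age, older mice lay above younger mice for 12 of 14 heat shock genes (median 0.13) and 16 of 19 immediate early genes (median 0.18). The part of handling in the age values of the set was not tested.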

How the data were processed

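Microglia of 9 mice, 4 given ethanol and 5 given saline, were sequenced, 1 library per mouse. The authors deposited a table of raw counts of reads per gene symbol with no normalization. Per the submitters' processing notes, HTSeq 0.6.1, STAR 2.4.2a and Trimmomatic 0.32 were used with build GRCm38.p4. Their settings, the annotation and whether strand was used are not given in the sources. Antisense partners overlap Eif2ak3, Ppp1r15b, Hsp90b1, Manf, Derl2, Syvn1 and Ddit3 by over 50 bases, and Pdia6, Pdia3, Ppp1r15a and Dnajb9 by 50 or fewer. Hsp90b1, Ddit3, Manf and Pdia4 also overlap another annotated gene on the same strand, and Calr has a pseudogene copy. These genes may hold reads of the other gene or lack reads shared with it.

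Low genes were removed with filterByExpr at its count minimum of 10 and total minimum of 15, and TMM factors scaled the library sizes. The test was the robust quasi-likelihood F test of edgeR 4.0.16 in R 4.3.3, adjusted over all genes by the Benjamini-Hochberg method, with a threshold of 0.05. Ethanol was compared with saline with no covariate, older with younger mice with ethanol as a covariate, the interaction of both, and the slope on log2 CPM of Hspa5 with ethanol as a covariate. The procedure was tested on simulated counts in which 200 genes of at least 10 CPM were changed. At 2-fold it recovered 182 for ethanol, 188 for age, 17 for the interaction and 29 for the slope on Hspa5. At 4-fold it recovered 199, 196, 180 and 182. For the slope, the fold was taken over the range of Hspa5. Most 2-fold differences in the interaction and the slope would thus have been missed. Lengths came from GENCODE M21 and promoters from RefSeq.

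The 34 genes, the other lists and the tests were chosen with earlier results of these data known. Genes were named by rule: per role, the gene with the highest mean CPM and the one with the smallest p for ethanol; for age the 4 and for the interaction the 2 smallest p; per other list, the smallest p and the highest level per length. Genes outside the rule are said to have been described after their values were seen, and the slopes on Hspa5 are given for genes with an unadjusted p under 0.05 and for the 3 steepest negative ones, chosen likewise. Alternatives were DESeq2 1.42.0, limma-voom 3.58.1 with sample weights, other size factors (RLE), no filter on low counts, a stricter one (4 or more libraries at 5 CPM or above), leaving out single libraries or saline 1 and ethanol 2 together, the replicate number as a block, age cohort or library-name suffix as covariates, each age cohort alone, age in days, other covariates for age and for Hspa5, and removal of a loess trend on GC content and length (span 0.3). For the Hspa5 slopes the last was added after seeing the data, as were the suffix as a covariate for age and single libraries left out for the other pathway genes.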

Additional observations from a re-analysis of the deposited data

Results flagged for a closer look

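A single mouse lay apart from the rest of its group in 4 of the 64 groups looked at (32 genes in each treatment), by a gap to its nearest neighbour larger than Dixon's 95% critical value, which chance passes in about 1 group in 20. Hspa5 was highest in saline 1, at 1247 CPM, against 1120 to 1148 CPM in the other saline mice. Hsp90b1 was highest in the same library, at 1211 CPM, against 965 to 1015 CPM. Hyou1 was lowest in ethanol 2, at 22.6 CPM, against 58.8 to 65.7 CPM in the other ethanol mice. Ddit3 was lowest in saline 4, at 15.4 CPM, against 18.8 to 20.1 CPM in the other saline mice.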

How the results depend on the processing

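No gene passed for ethanol against saline under any alternative run. For age, 97 genes passed with no count filter and 3 without saline 1 and ethanol 2. For the interaction, 1 passed with DESeq2, 53 with no count filter, and 0 to 848 as single libraries were left out, the 848 without ethanol 1. For the slope on Hspa5, 161 passed with DESeq2, 4 with no count filter, 0 to 2 as single libraries were left out, and 0 with limma-voom, without saline 1 and ethanol 2, with the replicate block, with no ethanol term, with ethanol and age cohort, and with the GC content and length trend removed. The replicate numbers did not pair the mice (correlations of deviations -0.0542 to -0.0101), and the replicate block left 0 genes called for ethanol (240 at an unadjusted p under 0.05), age and the interaction.

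Of 963 single-gene values under alternatives, 899 kept their sign and side of the threshold, 62 took the other sign and 2 passed (Atf6, interaction -0.80 without ethanol 1; Pdia3, slope 1.13 with DESeq2). These values cover 46 results, in which the interaction stands for Atf6 and Ppp1r15a only. The interactions of Ern1, Hyou1 and Calr without ethanol 1, given above, are therefore not counted among them. For age, Sdf2l1 was at -0.09 with the suffix covariate. Values for ethanol on the other side of 0 were, with limma-voom, Hyou1 0.03, Dnajc3 0.0029, Calr 0.06, Herpud1 -0.04 and Derl2 -0.01. Without saline 1 and ethanol 2 they were Ern1 0.10, Atf6 0.05, Ppp1r15b 0.02, Hyou1 0.10, Calr 0.11, Herpud1 -0.06, Derl2 -0.02 and Sec61b -0.02. With the suffix covariate they were Xbp1 0.0021, Atf4 0.01, Hspa5 0.0041 and Manf 0.02. In older mice alone they were Ddit3 0.07, Hspa5 0.07, Hsp90b1 -0.03, Manf 0.01, Pdia4 -0.02, Edem1 -0.16 and Derl1 -0.05. In younger mice alone they were Ern1 0.08, Atf6 0.13, Hyou1 0.04, Dnajb11 -0.02, Calr 0.09, Herpud1 -0.09 and Sec61b -0.03. With the GC content and length trend removed they were Hsp90b1 -0.0036 and Pdia4 -0.01, and with the replicate block as well Hsp90b1 -0.01, Sdf2l1 -0.01, Pdia4 -0.02 and Derl2 -0.01. As single libraries were left out, Ern1 ran from -0.47 to 0.05, Xbp1 -0.06 to 0.04, Atf4 -0.13 to 0.01, Ddit3 -0.19 to 0.09, Hspa5 -0.10 to 0.07, Hyou1 -0.32 to 0.06, Dnajb11 -0.05 to 0.12, Sdf2l1 -0.0039 to 0.14, Manf -0.11 to 0.03, Calr -0.16 to 0.06, Herpud1 -0.05 to 0.09, Edem1 -0.07 to 0.17 and Derl2 -0.03 to 0.07. The cause of these shifts was not tested. Depth limits Trib3 and Chac1, with 0 to 37 counts a library.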
